A study of Mus musculus with 24 samples.

Results

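The apolipoprotein genes of the liver were described here as a set of 10 genes chosen by name, Apoa1, Apoa2, Apoa4, Apoa5, Apob, Apoc1, Apoc2, Apoc3, Apoc4 and Apoe, out of 25746 genes in the count files. All 10 passed the filter on low counts. Liver RNA of 24 mice on the C57/BL6N background, killed at 12 weeks of age, had been sequenced from 4 groups of 6: male wildtype (mWT), male knockout (mKO), female wildtype (fWT) and female knockout (fKO). The KO mice lack the major urinary protein (Mup) gene cluster, whose products are small lipid-binding proteins made by the liver and passed into the urine. The deletion was made in zygotes by CRISPR/Cas9 and is carried by every cell. The line descends from a single male founder, so that changes inherited together with the cluster cannot be told apart from the deletion. WT mice were littermates of KO mice, and all groups ate the same chow. Per the paper, the mice were fasted for 4 h, anesthetized with isoflurane and scanned by microCT just before they were killed. The comparisons ask whether loss of the cluster, or sex, goes with a change in the mRNA of the proteins that carry lipids out of the liver.

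Apolipoproteins are the protein part of the lipoproteins, the particles in which triglycerides and cholesterol travel in plasma. Apob is the backbone of the very low density lipoprotein (VLDL) that the hepatocyte secretes, and the smaller apolipoproteins ride on VLDL and on high density lipoprotein (HDL), exchange between them, and steer the enzymes and receptors that act on the particle. Apoc2 is the cofactor that lipoprotein lipase needs, Apoc3 slows both lipolysis and the uptake of remnants, and Apoe is the ligand by which remnants are bound in the liver. Most of these genes lie in 2 groups of neighbours.

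In GRCm38 with the GENCODE M21 annotation, Apoa1, Apoc3, Apoa4 and Apoa5 lie within 43340 bp of chromosome 9. Apoc2, Apoc4, Apoc1 and Apoe lie within 27610 bp of chromosome 7, all on the minus strand. Apoa2 is at chr1:171225054-171226379 and Apob at chr12:7977648-8016835. The sequences just before the start are shown for Apoa2, Apoa4 and Apoc2, the members that differed between groups past the adjusted threshold below and that have an entry in the RefSeq promoter table (GRCm38.p6). Apoc1 and Apoc3 are not matched in that table, and 8 of the 10 members are. The 250 bases before the RefSeq start were searched on both strands for 9 motifs, and capitals mark the matches. The letters were TATAAA for the TATA box, then CACGTG for the E-box bound by upstream stimulatory factors, then AGGTCA for a nuclear receptor half-site, then TGTTTAC for the FOXA factors of the liver, and lastly GTTAAT for an HNF1 half-site. The longer strings were CAAAGTCCA for HNF4, TTCNNNGAA for STAT5, TGACGTCA for the cAMP response element and TTGCGCAA for C/EBP. Bases in an annotated exon on the same strand are left out, which takes 148 bases from the Apoa4 window and 109 bases, in the end of Apoc4, from the Apoc2 window. The stretches are chr1:171224804-171225053 on the plus strand for Apoa2, chr9:46240594-46240695 on the plus strand for Apoa4, and chr7:19677942-19678082 on the minus strand for Apoc2.
Apoa2: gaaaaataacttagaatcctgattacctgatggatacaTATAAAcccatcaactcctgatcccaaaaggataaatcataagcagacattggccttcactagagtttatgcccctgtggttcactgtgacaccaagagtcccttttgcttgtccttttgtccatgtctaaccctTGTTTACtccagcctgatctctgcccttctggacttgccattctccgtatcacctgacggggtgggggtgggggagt
Apoa4: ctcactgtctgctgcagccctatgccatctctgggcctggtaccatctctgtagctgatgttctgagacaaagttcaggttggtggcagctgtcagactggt
Apoc2: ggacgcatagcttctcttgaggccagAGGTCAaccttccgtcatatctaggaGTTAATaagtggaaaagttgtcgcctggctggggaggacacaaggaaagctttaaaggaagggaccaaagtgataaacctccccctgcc
The Apoa2 window holds a TATA box letter match at −212 to −207 from the RefSeq start and a FOXA match at −77 to −71. Of 32817 RefSeq promoter windows of the same length, 12.4% hold the TATA box letters and 3.16% the FOXA letters. In the Apoc2 window there is a nuclear receptor half-site, held by 14% of windows, and an HNF1 half-site, held by 6.44%. None of the 9 letter strings was found in the windows of Apoa4, Apoa1 and Apoe. The TATA box letters are also in the windows of Apoa5 and Apob, the E-box letters (6.02% of windows) in that of Apoa5, and the nuclear receptor half-site in that of Apoc4. The HNF4 (0.384% of windows), STAT5 (7.01%), cAMP response element (1.55%) and C/EBP (0.165%) strings were in none of the 8 member windows. These are matches of letters in a window and not measured binding.

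Counted reads per library ranged from 15361901 to 26261394, and the 10 genes held 2.59 to 3.41% of them. The members' lowest count in any library was 1055, for Apoa4, so that counting error was small beside the spread between mice. The deletion itself was seen in the counts: 3 of the 12 KO libraries held any read of the 22 Mup genes, at most 11, and the WT libraries held at least 70768. The 7 hepatocyte markers in the files were found in all groups, with a summed level of 96607 to 158150 counts per 1e6 counted reads after TMM scaling (CPM). Adipocyte markers summed to at most 0.464 CPM. Apoc2 needs care, since 79.5% of its exon bases are shared on the same strand with Gm44805, a gene model that runs over Apoc2 and Apoc4 and has 0 bases of its own but 3694 to 7534 reads per library. How such reads were shared out is not given in the sources used here. For Apoa4, 69.8% of exon bases lie opposite other gene models, of which the counted one, Gm47528, had 20 reads in all 24 libraries.

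Levels of different genes were compared as CPM per kilobase of annotated exon. Apoa2, a major protein of HDL, stood first in every group, at 8736 ± 719 in mWT, 10797 ± 910 in mKO, 10259 ± 788 in fWT and 10123 ± 775 in fKO (SD, n = 6). Its range did not meet that of the next gene in any group. Apoa1, the main protein of HDL and the activator of lecithin-cholesterol acyltransferase, Apoc1, an inhibitor of lipid transfer and of lipases, and Apoe followed together, between 3102 and 3893 CPM per kilobase in group mean, and neighbours among these 3 had overlapping ranges in every group. Apoc3 came next, from 1145 ± 100 in mWT to 1635 ± 173 in fKO, apart from its neighbours on both sides in all 4 groups.
Apob, whose transcript of 13934 bp is by far the longest, was at 496 to 611 CPM per kilobase and Apoa5, which promotes triglyceride clearance by lipoprotein lipase, at 436 to 494. Their ranges overlapped in all groups except mKO. At the lower end were Apoc2 (134 to 202), Apoc4, a minor VLDL protein (147 to 170), and Apoa4, a protein of HDL and of intestinal chylomicrons (64.2 to 123). The reads of Gm44805 may in part belong to Apoc4, or be counted for Apoc2 already. With all of them added, Apoc2 would be at 425 to 568 in group mean, beside the 436 to 494 of Apoa5. The place of Apoc2 thus depends on how the shared reads were given out. Apoa4 was the last in every group, but its range met that of the next gene in mKO, fWT and fKO. With the longest transcript as the length, Apoe (4711 in mWT) came after Apoa2 and before Apoa1 (4426) in mWT, so the order among these 3 depends on the length used.

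**Figure D1:**
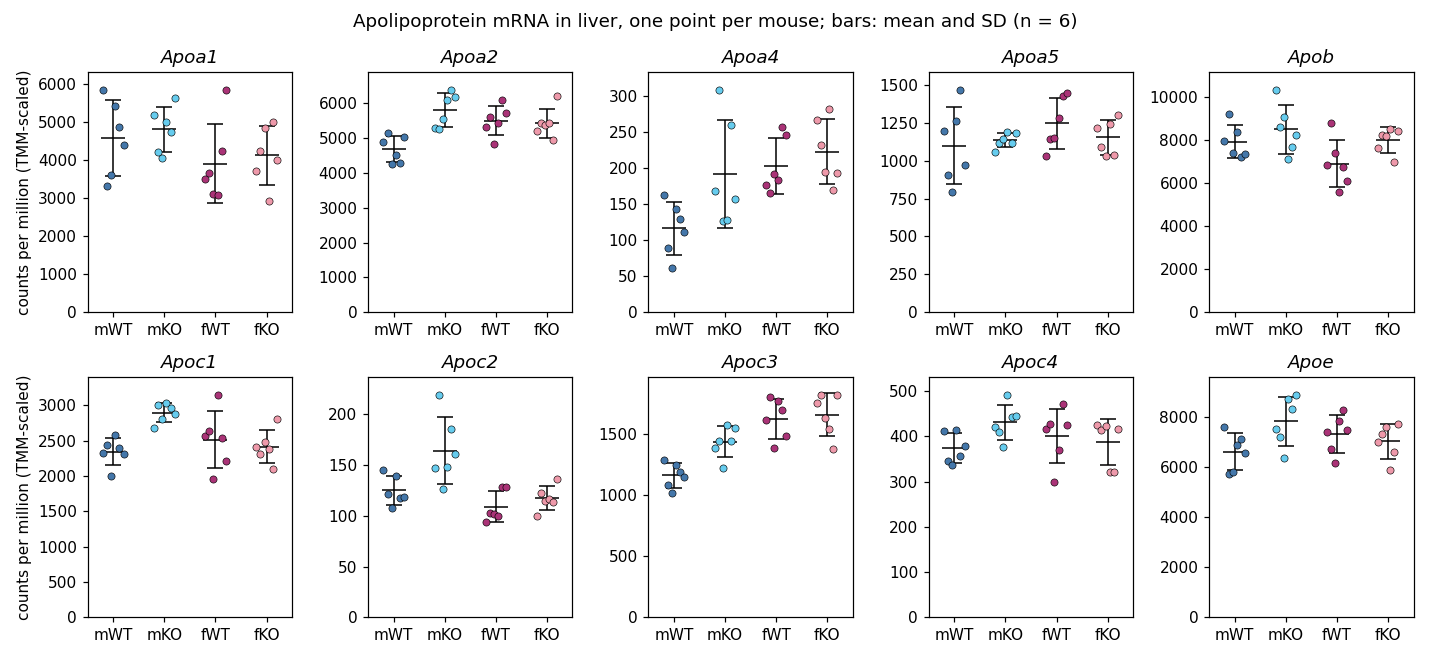
TMM-scaled CPM of the 10 apolipoprotein genes (vertical axis, from 0) in each of the 24 livers, by group (mWT, mKO, fWT, fKO). Points are mice, bars the mean and SD of 6. For Apoa2 and Apoc1 the lowest mKO mouse lies above the highest mWT mouse, and for Apoa4 and Apoc3 the lowest fWT mouse lies above the highest mWT mouse.

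Loss of the Mup cluster was examined first in males. All 10 genes had a higher fitted mean in mKO than in mWT, and their median log2 fold change was 0.27, whereas that of the 12330 genes tested was −0.0021 and 49.4% of those were higher. No member passed the threshold of an adjusted p of 0.05 in edgeR's quasi-likelihood test: 0 of 10, where 0.211% of all genes passed. Most of these calls over all genes were lost once the Mup genes were removed, as were those over both sexes together (closing section). At the unadjusted p of 0.01 that the study used, 5 of 10 members passed, all higher (Apoa2, Apoa4, Apoc1, Apoc2 and Apoc3), against 3.52% of all genes and 1.8% of all genes in the higher direction, and 7 had an unadjusted p under 0.05, against 10.6%. DESeq2 called the same 5 genes at its adjusted p of 0.05, against 1.15% of all genes. Its adjusted p was 0.0049 for Apoa2, 0.0259 for Apoc3, 0.0424 for Apoc1, 0.0448 for Apoc2 and 0.0468 for Apoa4. Every member had a mean over 100 CPM in each group. Of the 1366 tested genes with a mean over 100 CPM, 61.2% were higher in mKO, with a median log2 fold change of 0.037. In edgeR, 5.34% of these 1366 genes were higher with an unadjusted p under 0.01. In bulk liver, a difference in the number of cells that express a gene and one in its RNA per cell cannot be told apart.

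Apoa2 ranged from 4261 to 5150 CPM in mWT (median 4715) and from 5270 to 6396 in mKO (median 5823). All 6 mKO mice were above all 6 mWT mice. The log2 fold change was 0.31 (SE 0.0761, unadjusted p = 0.000445, adjusted p = 0.102 by edgeR and 0.0049 by DESeq2). Apoc1 showed the same kind of separation, from 2001 to 2577 CPM in mWT (median 2362) and from 2680 to 3024 in mKO (median 2916). Its log2 fold change was 0.30 (SE 0.0901, unadjusted p = 0.00233, edgeR adjusted p = 0.173). A complete separation with mKO higher was found for 2 of 10 members and for 0.584% of all genes, and 1.09% of all genes separated in either direction.

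Apoc3 went from 1015 to 1288 CPM in mWT (median 1170) to 1222 to 1576 in mKO (median 1440). Of the 6 mKO mice, 5 were above every mWT mouse. The log2 fold change was 0.31 (SE 0.0852, unadjusted p = 0.00131, edgeR adjusted p = 0.143). Apoc2, which acts on the same lipase in the opposite sense, was at 107 to 145 CPM in mWT (median 120) and 126 to 219 in mKO (median 154). Again 5 of 6 mKO mice exceeded the mWT range. Its log2 fold change was 0.39 (SE 0.111, unadjusted p = 0.00156, edgeR adjusted p = 0.152), and 0.33 (unadjusted p = 0.00182, edgeR adjusted p = 0.157) when the reads given to Gm44805 were added.

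Apoa4 had the highest fold change and the widest spread. It was at 61.9 to 163 CPM in mWT (median 121) and at 127 to 309 in mKO (median 163). Of the 6 mKO mice, 3 were above the mWT range and the others lay within it. The log2 fold change was 0.72 (SE 0.233, unadjusted p = 0.00531, edgeR adjusted p = 0.217). Apoe, at 5725 to 7621 CPM in mWT and 6389 to 8900 in mKO, differed by 0.24 (SE 0.0955, unadjusted p = 0.0174), and Apoc4, at 338 to 413 and 376 to 492 CPM, by 0.21 (SE 0.0985, unadjusted p = 0.0461). Both groups overlapped for these genes. The members with the least difference were Apob (log2 fold change 0.10, SE 0.100), Apoa1 (0.07, SE 0.157) and Apoa5 (0.05, SE 0.114), whose 95% intervals reached 0.31, 0.39 and 0.28 and so do not show that they were alike in mKO and mWT.

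In females the members showed no common direction. Higher in fKO were 5 members and lower were the other 5. Their log2 fold changes had a median of 0.0048, and 0 of 10 passed the adjusted threshold in edgeR. Of all genes 0.0892% passed, and none did once the Mup genes were removed. DESeq2 called 0 as well (0.146% of all genes), 1 member had an unadjusted p under 0.05, against 4.87% of all genes, and no member had one under 0.01, against 0.876% of all genes (1 without fWT replicate 2, and 0 without any other 1 mouse). The member with p under 0.05 was Apob, at 5593 to 8787 CPM in fWT (median 6797) and 6997 to 8541 in fKO (median 8227). All 6 fKO mice were above the fWT mean, within the fWT range, and the log2 fold change was 0.21 (SE 0.100, unadjusted p = 0.0446, edgeR adjusted p = 0.929). Apoa2 differed by −0.02 (95% interval −0.18 to 0.14), Apoc1 by −0.06 (−0.24 to 0.13), Apoc3 by 0.03 (−0.15 to 0.20), Apoc2 by 0.11 (−0.12 to 0.33) and Apoa4 by 0.13 (−0.34 to 0.61).

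**Figure D2:**
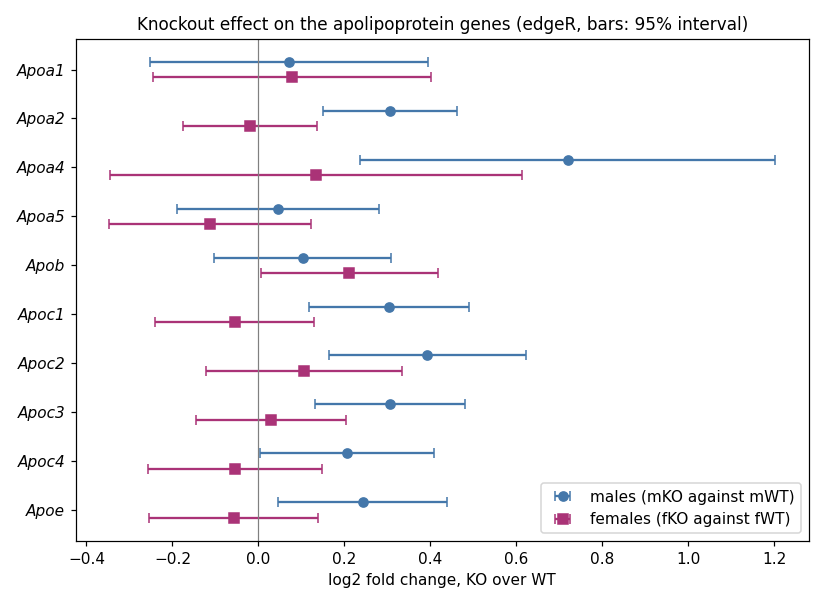
Log2 fold change of KO over WT (horizontal axis) for each of the 10 members (rows), in males as circles and in females as squares, with 95% intervals from edgeR. All 10 male values lie to the right of 0, from 0.05 to 0.72, and the female values lie between −0.11 and 0.21.

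Whether the KO effect differed between the sexes was tested as an interaction. No member passed (0 of 10 in edgeR and in DESeq2, where 0.00811% and 0.0811% of all genes passed), 4 had an unadjusted p under 0.05, against 5.96% of all genes, and Apoa2 and Apoc1 had one under 0.01, against 1.16% of all genes. The male effect exceeded the female effect by 0.33 for Apoa2 (SE 0.108, unadjusted p = 0.00556, edgeR adjusted p = 0.816) and by 0.36 for Apoc1 (SE 0.127, unadjusted p = 0.00904, edgeR adjusted p = 0.816). The number of members with an unadjusted p under 0.01 was 0 to 2 when each mouse was left out in turn. A difference between the sexes in the KO effect was therefore not shown for any member. Over both sexes together, 0 of 10 passed in edgeR and in DESeq2 (0.17% and 0.389% of all genes), 5 had an unadjusted p under 0.05, against 9.57% of all genes, and the lowest adjusted p was 0.299, for Apoc2 with a log2 fold change of 0.25 (SE 0.0786).

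The male KO effect moved with transcript length across the whole liver transcriptome. Among all tested genes, those with a longest transcript of up to 600 bp had a median log2 difference of 0.10 between mKO and mWT (85 genes), and those over 8000 bp had one of −0.06 (695 genes). In females the medians were −0.02 and 0.04. Apoa2 (518 bp), Apoc1 (532), Apoc3 (709), Apoc2 (727) and Apoa1 (1035) are short, and 72.5% of the 661 tested genes of up to 1100 bp were higher in mKO. In the interaction, the male effect exceeded the female effect for 72.2% of these 661 genes. Of the 90 genes of that length with a mean over 100 CPM, 82.2% were higher in mKO. By edgeR, 7.78% of these 90 were higher with an unadjusted p under 0.01. With the trend of each library with transcript length and GC content removed, the male log2 fold changes were 0.20 for Apoa2, 0.21 for Apoc1, 0.22 for Apoc3, 0.31 for Apoc2 and 0.71 for Apoa4, with unadjusted p of 0.00399, 0.00672, 0.0011, 0.00555 and 0.00451, and 0 of 10 adjusted calls. Under that setting 6 members had an unadjusted p under 0.01, Apoe (0.20, unadjusted p = 0.00244) being the sixth, against 3.72% of all genes, and the interaction had 0 such members in place of 2, at 0.21 for Apoa2 (unadjusted p = 0.0314) and 0.20 for Apoc1 (unadjusted p = 0.0478). A trend fitted first, by least squares with the Mup genes left in, called 5 members in males (Apoa2, Apoc1, Apoc2, Apoc3 and Apoe) and 4 over both sexes. That trend was −0.139 at up to 600 bp, where the median to be removed was 0.10, and left a median of 0.249 there, and it was replaced after its calls were seen. What produced the length trend was not tested.

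**Figure D3:**
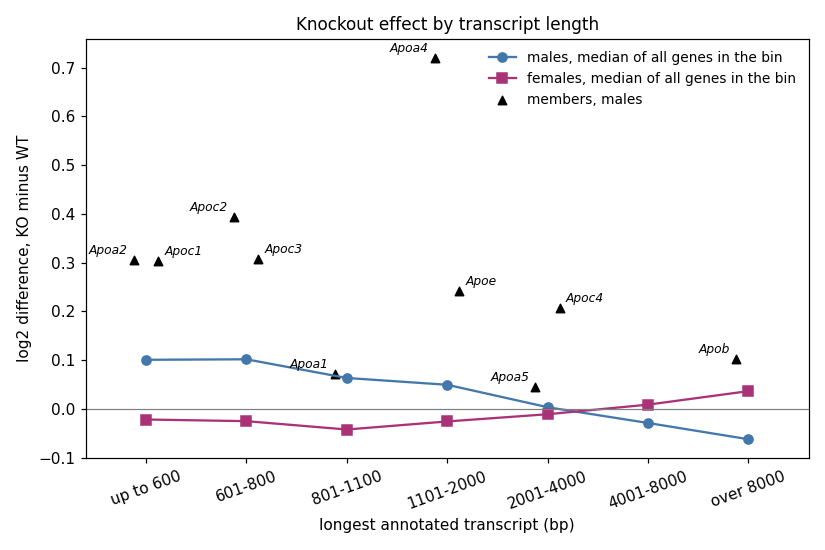
Log2 difference of KO minus WT (vertical axis) by length of the longest annotated transcript in bp (horizontal axis, 7 bins). Lines join the medians of all tested genes in each bin, circles for males and squares for females, and triangles are the members in males. The male medians go from 0.10 in the shortest bin to −0.06 in the longest, and Apoa2, Apoc1, Apoc2, Apoc3, Apoa4, Apoe, Apoc4 and Apob lie at least 0.1 above the median of their bin.

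Sex was compared next in the WT livers, a comparison that shares the mWT mice with the male KO effect. Of the 10 members 3 passed, all higher in fWT, where 17.3% of all genes passed and 8.81% were higher. Apoc3 was at 1386 to 1801 CPM in fWT (median 1653), above the mWT range given earlier. The groups did not overlap, and the log2 fold change was 0.48 (SE 0.0853, edgeR adjusted p = 0.00019). Apoa4, at 166 to 258 CPM in fWT (median 187), did not overlap with mWT either and was higher by 0.80 (SE 0.233, edgeR adjusted p = 0.0193). These 2 of 10 members compare with 7.7% of all genes without overlap and 4.05% without overlap and higher in females.

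Apoa2, at 4837 to 6098 CPM in fWT (median 5523), was higher by 0.23 (SE 0.0760, edgeR adjusted p = 0.0353), with 5 of 6 fWT mice above the mWT range. That call is near the threshold: it was lost without a filter on low counts (adjusted p = 0.0597), with the WT groups fitted on their own (0.0598), and without any 1 of mWT replicates 3, 4 and 5 or fWT replicates 2, 5 and 6 (adjusted p from 0.0547 to 0.0877). The other 7 members did not pass. Apob was lower in fWT by 0.20 (SE 0.100, edgeR adjusted p = 0.184), with 4 of 6 fWT mice below the mWT range, and passed only without fWT replicate 2 (adjusted p = 0.0476). Apoc2 and Apoa1 had log2 fold changes of −0.20 (SE 0.111) and −0.23 (SE 0.157), and those of Apoa5, Apoe, Apoc4 and Apoc1 lay between 0.10 and 0.18.

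In the livers without the cluster, the call between the sexes fell on another member. Apoc2 was lower in fKO than in mKO by 0.48 on the log2 scale (SE 0.111, edgeR adjusted p = 0.00332), the 1 of 10 members that passed, where 14.4% of all genes passed and 7.26% were lower. It was at 99.4 to 136 CPM in fKO (median 116), and 5 of 6 fKO mice were below the mKO range given above. With the Gm44805 reads added, the difference was −0.36 (edgeR adjusted p = 0.00975). In WT, Apoc2 was also lower in females, by 0.20, and did not pass. A change of its sex difference between WT and KO was not shown. The interaction for Apoc2 had an edgeR unadjusted p of 0.0793 and adjusted p of 0.874, and an unadjusted p of 0.372 with the length and GC trend removed. This comparison shares the mKO mice with the male KO effect, and no member separated fKO and mKO completely, against 7.26% of all genes.

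Apoc1 was close to the threshold, lower in fKO by 0.26 (SE 0.0900, edgeR adjusted p = 0.0524), with 5 of 6 fKO mice, at 2099 to 2800 CPM, below the mKO range. It passed in DESeq2 (adjusted p = 0.0265, where 16.1% of all genes passed), with the KO groups fitted on their own (0.0413) and without any 1 of mWT replicate 3, mKO replicate 1, fWT replicates 3 and 4 and fKO replicate 6 (0.0271 to 0.0471), but not with the length and GC trend removed (0.127, and 0.0352 with the trend fitted by least squares). Apoc3 was higher in fKO by 0.21 (SE 0.0851, edgeR adjusted p = 0.109) and passed with that trend removed (0.30, adjusted p = 0.000703, and 0.00459 by least squares) and without fKO replicate 5 (adjusted p = 0.0443). Apoa4 had 0.22 (SE 0.231) and Apoa2 −0.09 (SE 0.0760). Side by side, the sex difference of Apoc3 was 0.48 in WT and 0.21 in KO and that of Apoa4 0.80 and 0.22; the test of the difference between these is the interaction above, with unadjusted p of 0.0293 for Apoc3 and 0.0872 for Apoa4 and edgeR adjusted p of 0.823 and 0.874.

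**Figure D4:**
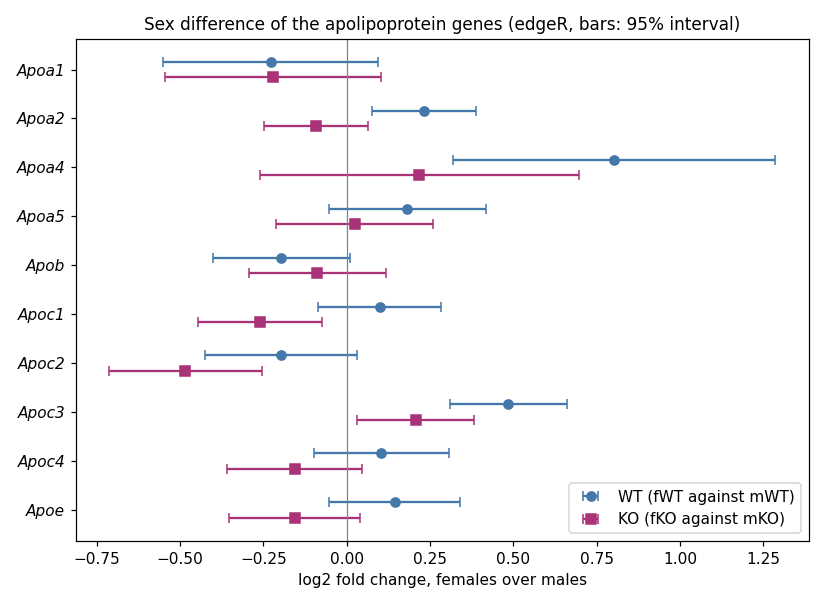
Log2 fold change of females over males (horizontal axis) for each member (rows), in WT as circles and in KO as squares, with 95% intervals from edgeR. Apoc3, Apoa4 and Apoa2 lie to the right of 0 in WT with intervals that leave out 0, and Apoc2 lies farthest to the left in KO, at −0.48.

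Markers of other cells moved with sex. The summed level of 8 macrophage and Kupffer cell markers was 85.5 to 173 CPM in mWT, 82.3 to 225 in mKO, 157 to 284 in fWT and 129 to 233 in fKO. Past the adjusted threshold, 6 of the 8 were higher in fWT than in mWT, against 8.81% of all genes. In fKO against mKO it was 0 of 8, where 14.4% of all genes passed in either direction. In the interaction, which tests that contrast, 0 of the 8 had an adjusted p under 0.05 in edgeR or DESeq2 or an unadjusted p under 0.05. Macrophages also make Apoe, which differed by 0.14 (SE 0.0954) between fWT and mWT. Red blood cell genes summed to 149 to 214 CPM in mWT, 155 to 260 in mKO, 40.5 to 67.8 in fWT and 41.2 to 60.5 in fKO. Alas2 had the highest mean of the 5, at 70.8 CPM. All 5 were lower in fKO than in mKO past the adjusted threshold, against 7.26% of all genes. In fWT against mWT 1 of the 5 was lower, where 17.3% of all genes passed in either direction. In the interaction, 0 of the 5 passed in edgeR or DESeq2. By edgeR, 2 had an unadjusted p under 0.05 and 1 had one under 0.01, against 5.96% and 1.16% of all genes. Of these macrophage and red blood cell genes, 0 passed between KO and WT in either sex in edgeR or DESeq2, and 2 red blood cell genes had an unadjusted p under 0.05 in males. The enterocyte markers, of interest for Apoa1, Apoa4 and Apob, which the intestine also makes, had 2 or 3 of 5 at 0 reads in every group. Their summed level was 42.7 to 85.2 CPM in mWT and 54.6 to 111 in mKO, nearly all of it from Fabp2. Over all mice, the mean of Fabp2 was 64.7 CPM and that of Vil1, the next highest, 0.182. Fabp2, the 1 enterocyte marker that was tested, was at a log2 fold change of 0.43 in males (unadjusted p = 0.0229, edgeR adjusted p = 0.366). Of the 7 hepatocyte markers, Ttr (0.30, unadjusted p = 0.00427, edgeR adjusted p = 0.212) and Fgb (0.24, unadjusted p = 0.0282, edgeR adjusted p = 0.392) had an unadjusted p under 0.05 in the same comparison. The part of other cells in the members' values was not tested.

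Variation from mouse to mouse within a group was examined next. Deviations of log2 CPM from the group mean were compared over the 24 mice for all 45 pairs, with a permutation within groups and adjustment over the 45 pairs. Of these, 35 pairs had a positive r and 8 passed, all positive, with r of at least 0.56. Over all 76008285 pairs of tested genes, 49.8% were positive and 2.16% had an r of at least 0.56. Over pairs of the 1029 genes with a mean CPM no lower than that of the lowest member, these shares were 55.1% and 6.03%. The highest were Apoc4 and Apoe (Pearson r = 0.77, permutation p = 5e-05, adjusted p = 0.00225, Spearman rho = 0.72 with permutation p = 0.00018 and adjusted p = 0.0081), both on chromosome 7 with Apoc1 between them, and Apoc3 and Apoc4 (r = 0.76, permutation p = 0.00015, adjusted p = 0.00225, rho = 0.69 with permutation p = 0.00088 and adjusted p = 0.0158), on different chromosomes. Without the 2 mice farthest from the median of the first gene, r was 0.69 and 0.70. Within groups, r of Apoc4 and Apoe was 0.77 in mWT, 0.92 in mKO, 0.71 in fWT and 0.87 in fKO.

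The other pairs that passed were Apoc3 and Apoe (r = 0.74), Apoa4 and Apoc2 (0.72), Apoc1 and Apoc3 (0.71), Apoa1 and Apoe (0.64), Apoa2 and Apoc4 (0.57) and Apoa4 and Apoa5 (0.56). By Spearman's rho 6 of the 8 passed, and Apoa2 and Apoc4 (adjusted permutation p = 0.112) and Apoa4 and Apoa5 (0.057) did not. For Apoa4 and Apoc2, r was 0.85 to 0.94 in mWT, mKO and fWT but −0.37 in fKO. All 12 pairs on the same chromosome were positive and 2 passed, against 23 positive and 6 passed of 33 on different chromosomes. The lowest r of all pairs was −0.43, for Apob and Apoe, and did not pass (adjusted permutation p = 0.138). It was 0.13 with the length and GC trend of each library removed. None of the 45 pairs passed once the length and GC trend of each library was removed: r was then 0.59 for Apoc4 and Apoe (permutation p = 0.00293, adjusted p = 0.0659), 0.64 for Apoa4 and Apoc2 (permutation p = 0.00203, adjusted p = 0.0659) and 0.35 for Apoc3 and Apoc4.

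By the same deviations, as a description over 24 mice among 12329 other genes, the gene most like each member was Ahsg for Apoa1 (r = 0.88), Psmb4 for Apoa2 (0.76), Gm45208 for Apoa4 (0.79), Asl for Apoa5 (0.82), Usp9x for Apob (0.95), Ttc36 for Apoc1 (0.86), Gm44805 for Apoc2 (0.83), Tmem205 for Apoc3 (0.87), Gm45233 for Apoc4 (0.93) and Dnajb12 for Apoe (0.90). Gm44805 shares most of the exon bases of Apoc2. Each pair shares its libraries, and the length and GC trend of each library was not removed from these values.

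Genes that act around the members were counted as lists. None of 12 other apolipoproteins and HDL-bound proteins tested, 12 genes of VLDL assembly and secretion, 11 lipoprotein receptors, 14 genes of plasma lipolysis, lipid transfer and efflux, and 33 transcription factors of apolipoprotein genes passed the adjusted threshold between KO and WT in males or in females in edgeR. Of these 82 genes, 8 had an unadjusted p under 0.05 in males and 1 in females, against 10.6% and 4.87% of all genes. DESeq2 called 3 in males and 0 in females, against 1.15% and 0.146% of all genes. Of those with an unadjusted p under 0.01 in males, 3 are given here, chosen after their values were seen. Apoh and Lipc, hepatic lipase, were at log2 fold changes of 0.20 (edgeR adjusted p = 0.262) and 0.29 (0.180). The estrogen receptor Esr1 was at −0.94 (0.140) and was among those called by DESeq2. In males the list medians of the log2 fold change were 0.08, 0.01, −0.04, 0.09 and −0.03 in that order, beside 0.27 for the 10 members. Between fWT and mWT, where 17.3% of all genes passed, 4 of the 12 other apolipoproteins and HDL-bound proteins were higher and 1 lower. Pon1, the antioxidant paraoxonase of HDL, was higher by 0.71 (edgeR adjusted p = 1.01e-05), Apoh by 0.35 (0.000673) and Apom, the carrier of sphingosine 1-phosphate, by 0.35 (0.00292), and Saa4 fell by 0.61 (0.0157).

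Of the VLDL assembly genes, Tm6sf2, which helps to load lipid onto Apob, was higher in fWT by 0.95 (edgeR adjusted p = 5.73e-08) and Sec24a, of the vesicle coat, lower by 0.28 (0.0325). Of the receptors 3 were higher and 1 was lower: Vldlr by 2.58 (5.78e-05), the remnant-binding syndecan Sdc1 by 0.60 (0.0011), Stab2 by 0.32 (0.0485), and Sort1 lower by 0.93 (0.00388). Among the plasma enzymes, Lipc was higher by 0.68 (1.97e-06) and Lcat, the enzyme that Apoa1 activates, by 0.45 (0.000263), whereas Lpl, lipoprotein lipase, and Abca1, which loads lipid onto Apoa1, were lower by 0.91 (0.00655) and 0.33 (0.00736). Of the 33 transcription factors 2 passed, among them Foxa3, lower by 0.61 (0.0124).

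Between fKO and mKO, Tm6sf2 was higher by 0.88 (edgeR adjusted p = 2.46e-07) and Cideb, a VLDL lipidation factor, lower by 0.23 (0.0287). Pon1 (0.49, edgeR adjusted p = 0.00099) and Apom (0.29, 0.014) were the 2 of 12 other apolipoproteins and HDL-bound proteins that passed, where 14.4% of all genes passed. Vldlr, Sdc1 and Stab2 were higher by 1.64, 0.46 and 0.33, Lipc and Lcat by 0.40 and 0.34, and Lpl fell by 1.59 (edgeR adjusted p = 2.42e-05). Of the transcription factors, Esr1 was higher by 2.05 (4.97e-06) and Foxa3 lower by 0.52 (0.0355). Whether these differences between the sexes differed between WT and KO was tested as the interaction, in which 0 of the 82 genes passed in edgeR. An unadjusted p under 0.05 was found for 6, against 5.96% of all genes. DESeq2 called 1, Esr1, against 0.0811% of all genes.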

How the data were processed

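RNA of 24 livers was prepared with a stranded mRNA kit and read as single ends in one multiplexed run. Per the labels and methods, the authors used fastp 0.20 for trimming, STAR 2.7a for alignment on GRCm38.p6, and featureCounts for counting. The deposited values are raw counts per Ensembl gene, with one file per mouse. The annotation release, the strand setting and the handling of shared reads are not given in the sources used here. Symbols and lengths came from GENCODE M21, which matched 25635 of 25746 genes.

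The 12330 genes that reached 0.66 CPM, before scaling, in 6 or more libraries were tested in R 4.3.3 with edgeR 4.0.16 (TMM scaling, quasi-likelihood F test, robust, one mean per group over all 24 libraries). SE is the log2 fold change divided by the square root of F. A call is a Benjamini-Hochberg adjusted p under 0.05 over all genes tested. The two-sided permutation tests of the correlations drew 100000 resamples within groups on log2 CPM with a prior count of 2. DESeq2 1.42.0 and the other alternatives stand in the closing section, and the fits were tested on simulated data. Mice were separate animals and each library counted once: the least chi-square per gene over 60 replicate pairs was 8.07, so none were duplicates. The members and gene lists were chosen with earlier results of these data known. Named are the 10 members, at most 4 called genes per list and comparison, and the gene most like each member. Some genes of the lists are not reported here. Reads of Gm44805 were added to Apoc2, and the length and GC trend (natural splines per library by robust regression, without the Mup genes, available for 99.9% of genes) was removed, in place of a least-squares version with the Mup genes that is also given, as alternatives chosen after seeing the data.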

Additional observations from a re-analysis of the deposited data

How the results depend on the processing

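Each comparison was recomputed with DESeq2 size factors, DESeq2, no filter, filterByExpr, non-robust dispersions, groups on their own, Mup genes removed and 24 fits without 1 mouse each, and, chosen after seeing the data, with the edgeR 4 deviances, the Gm44805 reads added and the length and GC trend removed, robustly or, in the version made first, by least squares with the Mup genes. Members called for the male KO effect went from 0 to 5 in DESeq2 and 5 by least squares and stayed at 0 in the other fits. Over both sexes they went from 0 to 4 by least squares. For the sex difference in KO the count of 1 became 2 in DESeq2, with groups on their own and with the trend removed, 3 by least squares, and was 1 to 2 without 1 mouse each, and for that in WT it was 2 to 3. The 8 correlated pairs became 0 with the trend removed, 2 by least squares and 6 to 10 without 1 mouse each. The cause of these changes was not tested.

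Over all genes, the 26 male KO calls became 142 in DESeq2, 107 by least squares, 48 with groups on their own, 2 without the Mup genes, 59 without mWT replicate 1 and 40 without mWT replicate 2. The 11 female calls became 18 and 0 in DESeq2 and without the Mup genes, the 1 interaction call became 10 in DESeq2, and the 21 calls over both sexes became 48 and 1, and 112 by least squares.

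Direction changed only for values that passed in no fit. Without 1 mouse each, log2 fold changes ranged from −0.0062 to 0.15 for Apoa1 and −0.032 to 0.15 for Apoa5 in the male KO effect, from −0.061 to 0.012 for Apoa2, −0.12 to 0.020 for Apoc1 and −0.013 to 0.076 for Apoc3 in the female KO effect, from −0.16 to 0.076 for Apoa1 in the interaction, from −0.072 to 0.017 for Apoa5 over both sexes and from −0.011 to 0.056 for Apoa5 in the sex difference in KO. With the trend removed, Apoc1 was at 0.00090 and Apoe at 0.040 in the female KO effect, Apob at 0.0047 in the interaction and Apoa5 at 0.016 over both sexes. By least squares, Apoa2 was at 0.12, Apoc1 at 0.13 and Apoe at 0.075 in the female KO effect, Apob at 0.020 in the interaction and Apoa5 at 0.012 over both sexes.

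The labels number the replicates in each group, but same-numbered mice are different animals and their deviations correlated at −0.335 to 0.169, so the numbers do not pair them. With the replicate number as a block, members called were 0 for the male KO effect, 3 for the sex difference in WT and 1 for that in KO.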
